A study of Mus musculus with 50 samples.

Results

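The comparison described here is the second step of in vitro activation in CD8+ T cells of wild type (WT) mice, from 2h to 6h. Its members are 10 of the 50 libraries of the series, namely the 5 WT libraries at 6h and the 5 at 2h, chosen by genotype and time labels and paired by the mouse number that the labels give. All mice were 10 weeks old on the strain background labelled C567BL/6J. T cells were taken from spleens with magnetic anti-CD8a beads and activated in culture by 2 antibodies, anti-CD3e on the plate and anti-CD28 in solution, each at 2 ug/ml. The 5 WT libraries at 6h are WT cells after 6 hours of this stimulation, and the 5 at 2h are cells of the same mice after 2 hours. The knockout mice (KO) of the series, treated in the same way, serve only for 1 comparison at the end, with 5 libraries at 6h and 5 at 2h. Beads against CD8a can also hold dendritic cells that carry this protein, and each library is RNA of a whole cell preparation, so a lower level can come from fewer cells of a type or from less RNA per cell, which cannot be told apart.

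As background, antibodies against CD3 and CD28 imitate the antigen receptor signal and the costimulatory signal that start a T cell response. The first genes to respond are immediate early transcription factors and signal inhibitors, which are transcribed without new protein. Cytokines, chemokines and surface receptors follow, and the resting cell then builds ribosomes, nucleotides and energy enzymes before it enters the first division. Genes that hold naive cells quiescent and let them recirculate through lymphoid organs are shut off along the way.

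Levels are in CPM, the reads of a gene scaled to a common library total with TMM factors over all libraries. Changes are log2 changes at 6h relative to 2h, with adjusted p values from edgeR's paired quasi-likelihood test. The standard errors (SE) were derived from that test, as the size of the log2 change divided by the square root of its F value. Genes with an adjusted p under 0.05 over all genes tested were called. The counted reads summed to 22156560 to 24819014 per library at 6h and to 24653705 to 27720267 at 2h, except for the 2h library of mouse 3 with 9571625.

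Some libraries stood apart. The summed level of 26 mitotic and G2 genes at 6h was 9260 CPM in mouse 1 and 6736 CPM in mouse 4, and lay between 134 and 140 CPM in mice 2, 3 and 5. At 2h the sum was 7385 CPM in mouse 1 and 6138 CPM in mouse 4, and lay between 162 and 184 CPM in the other 3. The recombination gene Rag1 stood at 599 and 402 CPM at 6h and at 136 and 85.4 CPM at 2h in mice 1 and 4, and at or below 1.78 CPM in the 6 libraries of the other mice. For 11 immature thymocyte genes the sum at 6h was 3641 CPM in mouse 1, 2537 CPM in mouse 4 and between 638 and 714 CPM in the others. Their sum at 2h was 2054 CPM in mouse 1, 1809 CPM in mouse 4 and between 1272 and 1568 CPM in the others. Ptcra, which encodes the pre-T cell receptor chain, had 45.9 and 31.3 CPM at 6h and 18.7 and 11.6 CPM at 2h in mice 1 and 4, and 0 to 0.297 CPM in the libraries of mice 2, 3 and 5. The labelled cell type was checked against Cd8a, which had 254, 776, 592, 316 and 667 CPM in mice 1 to 5 at 6h, against 137, 446, 354, 177 and 379 CPM at 2h. Cd8a was thus lowest in mice 1 and 4 at both times. Cd3e, a chain of the T cell receptor complex, ranged over 284 to 377 CPM at 6h, against 311 to 439 CPM at 2h, with no such split. The 2h library of mouse 3 also differed from those of mice 2 and 5 by an SD of 1.08 on the log2 scale over genes, against 0.643 and 0.62 for the same measure in mice 2 and 5, with short transcripts higher and long ones lower. Mice 1 and 4 had been set apart beforehand for a thymocyte-like, cycling profile seen in these same data. The values above describe that profile and are not a separate test of it. Results are given for 5 mice and again for mice 2, 3 and 5. The part of the thymocyte and cell cycle difference in any result was not tested.

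With all 5 mice, 1571 of 11886 genes were called (13.2%), of which 642 were higher at 6h (5.4%) and 929 lower (7.82%). With mice 2, 3 and 5, 6168 genes were called (51.9%), 3210 higher (27%) and 2958 lower (24.9%). The counts of list members below are to be read beside these shares. In both fits 1531 genes were called, 627 higher and 904 lower, and 0 were called in opposite directions. The second fit uses libraries that are also in the first, so the like signs follow in large part from shared data. The 4637 genes called with mice 2, 3 and 5 only include 1117 whose change had the opposite sign in both mouse 1 and mouse 4. These genes were picked as not called once mice 1 and 4 were included, so part of this count follows from the choice. No such count was made over all genes tested, so it is not read as a result about these genes. The count with 5 mice depended on which mice were included. It rose to 3583 without mouse 1. It fell to 228 without mouse 2, 393 without mouse 3, 1120 without mouse 4 and 262 without mouse 5. With mice 2 and 5 alone, without the 2h library that stood apart, 7634 genes were called. That fit has fewer residual degrees of freedom than the 5-mouse and 3-mouse fits, so its larger count is not a firmer result.

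**Figure D1:**
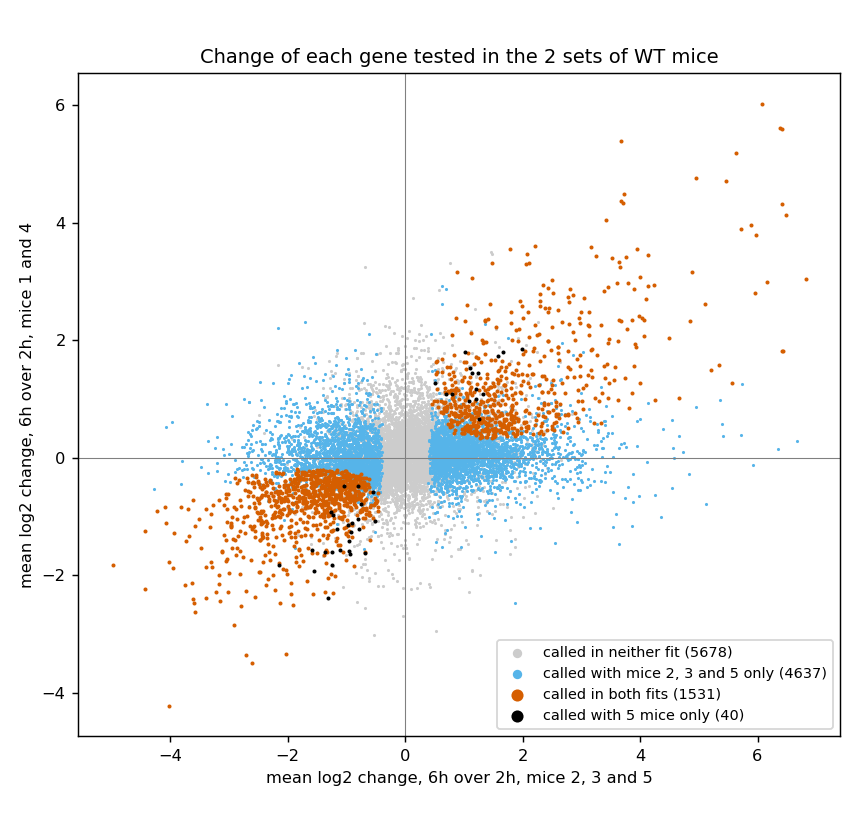
Mean log2 change at 6h relative to 2h of each of the 11886 genes tested, in mice 2, 3 and 5 (horizontal axis) and in mice 1 and 4 (vertical axis), coloured by the fit that called the gene. The 1531 genes called in both fits have the same sign in both, and the fits share the libraries of mice 2, 3 and 5. The 4637 called with mice 2, 3 and 5 only include 1117 with the opposite sign in both mouse 1 and mouse 4. Part of that count follows from the choice of genes not called once mice 1 and 4 are included.

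Chemokine genes rose. Of 8 chemokine genes tested, 6 rose and 1 fell with 5 mice, and the same counts were found with mice 2, 3 and 5. Their median change was 3.53 with 5 mice, beside 0.02 over all genes tested. Xcl1, which attracts cross-presenting dendritic cells, had 160, 5361, 7377, 1982 and 8613 CPM in mice 1 to 5 at 6h, against 2.54, 86.8, 155, 28.1 and 83.1 CPM at 2h. All 6h values lay above all 2h values, although mouse 1 was far below the others at both times. The log2 change of Xcl1 was 6.04 ± 0.25 (SE, adjusted p = 7e-05) with 5 mice and 6.07 ± 0.28 (adjusted p = 2.43e-06) with mice 2, 3 and 5. Ccl3 and Ccl4, which recruit immune cells, rose by 3.61 ± 0.24 and 3.44 ± 0.21. Ccl3 had 31.7, 1645, 1976, 523 and 2258 CPM at 6h, against 3.99, 140, 186, 35.3 and 112 CPM at 2h, so that mouse 1 at 6h lay below 4 of the 5 libraries at 2h. Ccl1, a ligand of Ccr8, had 2.07 to 22.4 CPM at 6h and at most 0.285 CPM at 2h, with 0 in 3 of 5 libraries. Cxcl9, a chemokine outside the list and a ligand of Cxcr3 that interferon gamma induces, had 13.3, 23.6, 13.2, 39.7 and 28.8 CPM at 6h, against 0.203, 0.407, 0.107, 0.68 and 0.0778 CPM at 2h, a change of 6.33 ± 0.44 (adjusted p = 0.000526). Unlike the other chemokines named here, it was highest in mouse 4. Ccl5, which resting memory cells store as mRNA, fell by 1.23 (SE 0.22) on the log2 scale. The calls of Xcl1, Ccl3, Ccl4, Ccl1 and Cxcl9 held with each mouse left out, whereas those of Ccl5 (adjusted p up to 0.0837) and Ccl9 (4.95 ± 0.87, adjusted p up to 0.0732) were lost without mouse 2 and without mouse 5.

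Cytokines of T cells rose as a smaller set. Of 24 cytokine genes, 18 passed the filter on low counts, and 7 of these rose and 0 fell with 5 mice. With mice 2, 3 and 5, 8 rose and 0 fell. Il2, the T cell growth factor, had 0.904, 38.3, 44.7, 12.2 and 41.7 CPM at 6h, against 0.101, 1.95, 3.52, 0.817 and 2.29 CPM at 2h. Within each mouse the 6h value was higher, but the groups overlapped because mouse 1 at 6h was as low as 2h libraries of others. The change of Il2 was 3.90 ± 0.25 (adjusted p = 0.000404). Lta, which encodes lymphotoxin alpha, rose by 2.55 ± 0.16, and Tnfsf14 (LIGHT), a ligand of the herpesvirus entry mediator, rose by 2.20 ± 0.16. Ifng, which encodes interferon gamma, had 10.4, 129, 106, 41.3 and 131 CPM at 6h, against 4.77, 43.1, 26.1, 12.5 and 28.9 CPM at 2h, a change of 1.70 ± 0.20 (adjusted p = 0.00395). Tnf and Lif rose by 1.22 ± 0.20 and 1.63 ± 0.23, and Csf2, which encodes a myeloid growth factor, by 3.34 ± 0.59, with at most 1.71 CPM at 2h. The calls of Tnf and Csf2 were lost without mouse 2 and without mouse 5 (adjusted p up to 0.0613 and 0.0839). Tnfsf8, the ligand of CD30, is outside the list and was among the largest increases, with 36.4, 684, 823, 280 and 980 CPM at 6h, against 5.14, 18.6, 12.3, 8.74 and 16.4 CPM at 2h.

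Surface receptors of the activated state rose alongside. Of 20 costimulatory and inhibitory receptors, 9 rose and 1 fell with 5 mice, and 10 rose and 4 fell with mice 2, 3 and 5. Tnfrsf9 (4-1BB), a costimulatory receptor induced by activation, had 57.4, 1883, 2108, 628 and 2144 CPM at 6h, against 2.27, 36.5, 55.2, 11.5 and 34.1 CPM at 2h. All 6h values exceeded all 2h values, and the change was 5.45 ± 0.27 (adjusted p = 0.000192). Pdcd1 (PD-1), an inhibitory receptor, had 144, 283, 345, 192 and 318 CPM at 6h, against 23.4, 37.0, 64.2, 26.5 and 40.1 CPM at 2h, a change of 2.74 ± 0.17. Lag3, another inhibitory receptor, rose by 3.25 ± 0.38, Cd200 by 3.84 ± 0.57 and the maturation marker Cd83 by 2.32 ± 0.23. Tnfrsf1b, a receptor of tumour necrosis factor, was the member that fell, by 0.80 on the log2 scale. Il12rb1, a receptor chain for interleukin 12, split the mice. It had 104, 153, 142, 155 and 134 CPM at 6h, against 41.4, 2.73, 0.534, 31.4 and 2.65 CPM at 2h. The levels at 6h were alike in all mice, and those at 2h were high only in mice 1 and 4, so its change was 4.44 ± 1.05 (adjusted p = 0.0368) with 5 mice and 6.12 ± 0.35 with mice 2, 3 and 5, and the 5-mouse call was lost without mouse 2, 3 or 5.

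**Figure D2:**
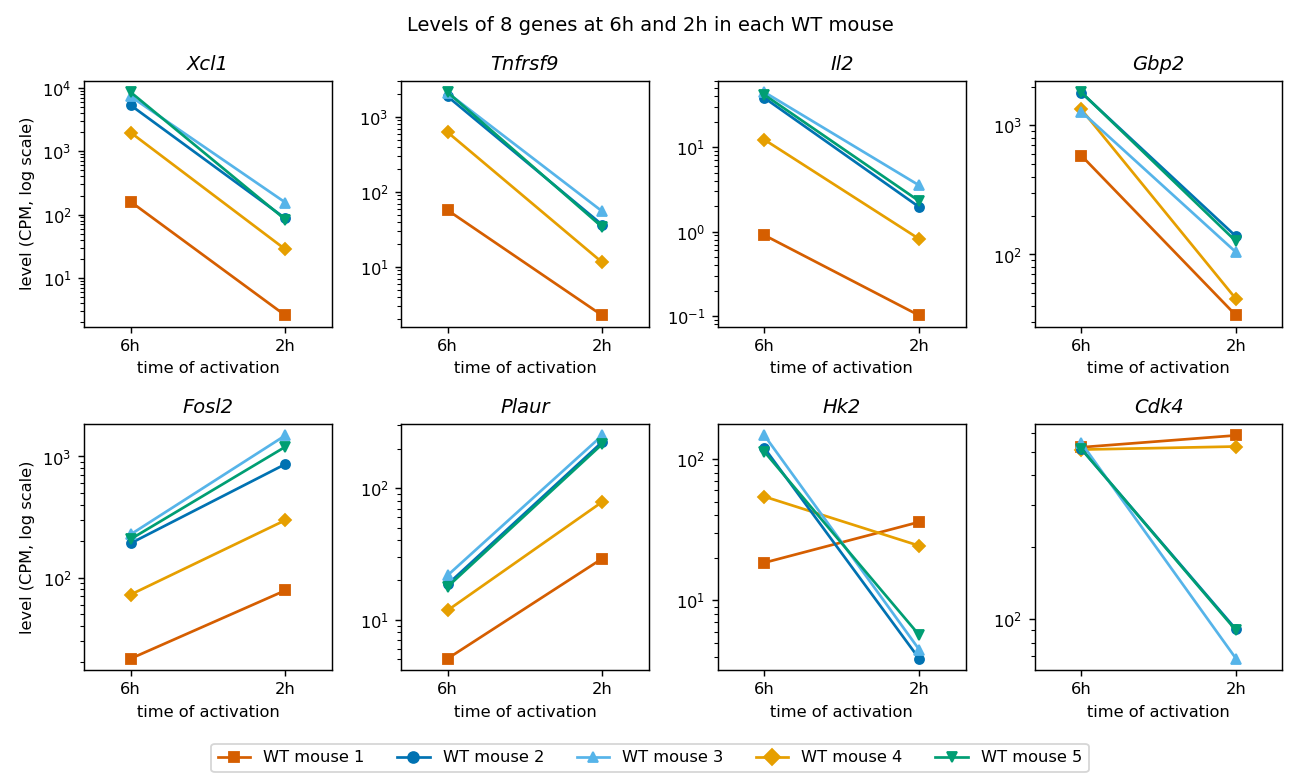
Levels in CPM on a log axis of 8 genes at 6h (left) and 2h (right) in each WT mouse, with a line joining the libraries of 1 mouse. Xcl1, Tnfrsf9, Il2 and Gbp2 are higher at 6h in all 5 mice, Fosl2 and Plaur are lower in all 5, and Cdk4, at 509 to 543 CPM in all mice at 6h, is higher than at 2h in mice 2, 3 and 5 only.

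Cytotoxic genes rose in part. Of 12 tested, 6 rose and 0 fell with 5 mice, and 6 rose and 1 fell with mice 2, 3 and 5. Serpinb9, which protects the killer cell from its own granzyme B, had 50.1, 470, 512, 216 and 653 CPM at 6h, against 8.96, 24.1, 12.2, 14.9 and 20.4 CPM at 2h, a change of 4.19 ± 0.46 (adjusted p = 0.00306). All its 6h values exceeded all 2h values. Gzmb, the granzyme B gene, had 0.753, 55.7, 55, 21.1 and 61.3 CPM at 6h, against 0.642, 11.8, 5.34, 2.93 and 8.48 CPM at 2h, with almost no difference in mouse 1. It rose by 2.41 ± 0.42 (adjusted p = 0.0152), and the call was lost without mouse 2, 3 or 5. Prf1 (perforin) and Nkg7, a granule membrane protein, rose by 1.5 ± 0.17 and 2.05 ± 0.21. The NK cell list moved with these genes in mice 1 and 4, with a median change of 1.28 and 0.81, against -0.26, -0.58 and 0.12 in mice 2, 3 and 5. Its sums in mice 1 and 4 were 2273 and 1404 CPM at 6h, against 714 and 717 CPM at 2h, and lay between 172 and 232 CPM in the other mice at either time. Gzma, a granzyme gene that is also in the cytotoxic list, made up 2255 and 1332 CPM of those sums at 6h, against 708 and 679.6 CPM at 2h. Ncr1, a defining NK cell receptor, was at or below 0.332 CPM in all 10 libraries. Of 6 NK genes tested, Eomes alone was called with 5 mice, and 1 rose and 2 fell with mice 2, 3 and 5. Among 20 transcription factors of effector fate, 5 rose and 3 fell with 5 mice, and 9 rose and 8 fell with mice 2, 3 and 5. Irf4, which scales with the strength of the receptor signal, had 118, 2389, 2618, 827 and 2654 CPM at 6h, against 55.2, 654, 567, 243 and 713 CPM at 2h, a change of 1.74 ± 0.21. Irf8 rose by 2.64 ± 0.39 and Id3 by 1.01 ± 0.17, and the call of Id3 was lost without mouse 2 or 5. Rgs16, an inhibitor of G protein signals, rose by 4.92 ± 0.20 (adjusted p = 7e-05), with per-mouse changes of 4.34 to 5.19.

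Interferon-stimulated genes rose in part. Of 26 tested, 9 rose and 0 fell with 5 mice. With mice 2, 3 and 5, 10 rose and 5 fell, beside 27% and 24.9% of all genes in that fit. Those that fell were Oasl1, Oasl2, Irf1, Irf7 and Irf9, a smaller share than that of all genes. All 26 were higher at 6h in mouse 1 and in mouse 4, against 19, 17 and 15 of 26 in mice 2, 3 and 5. Gbp2, a GTPase of cell defence, had 584, 1794, 1278, 1332 and 1807 CPM at 6h, against 33.7, 138, 104, 45.2 and 126 CPM at 2h, a change of 4.00 ± 0.24 (adjusted p = 0.000404). Iigp1 and Igtp, GTPases that act on vacuoles of intracellular parasites, rose by 3.94 ± 0.28 and 1.51 ± 0.29. Ifit3, which binds RNA-sensing complexes, had 1.62, 20.9, 12.7, 6.81 and 22.4 CPM at 6h, against 0.575, 5.45, 3.31, 1.46 and 4.94 CPM at 2h, a change of 1.94 ± 0.23. The call of Igtp was lost without mouse 2, 3 or 5 (adjusted p up to 0.0728). Gbp10 (4.92 ± 0.55) has near-identical neighbours in the Gbp cluster, so its counts are uncertain.

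Promoters of 3 of these genes and of the phosphatase gene Dusp1 are shown because their levels moved with other members of their lists, and each was picked because it holds a match to a known response element. The 250 bases before the RefSeq start (GRCm38.p6, gene strand) are in lower case, and capitals mark the match, on either strand.
Gbp2, chr3:142620413-142620662, plus strand: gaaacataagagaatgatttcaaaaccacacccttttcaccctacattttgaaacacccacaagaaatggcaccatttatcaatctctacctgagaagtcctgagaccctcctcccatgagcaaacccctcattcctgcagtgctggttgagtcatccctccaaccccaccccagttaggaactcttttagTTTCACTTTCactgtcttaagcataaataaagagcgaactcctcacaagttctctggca
Ifit3, chr19:34583279-34583528, plus strand: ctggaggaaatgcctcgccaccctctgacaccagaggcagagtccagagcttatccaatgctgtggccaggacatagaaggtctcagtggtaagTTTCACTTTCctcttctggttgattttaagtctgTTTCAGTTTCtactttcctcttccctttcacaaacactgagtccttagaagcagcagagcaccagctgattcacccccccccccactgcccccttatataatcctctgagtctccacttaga
Igtp, chr11:58199306-58199555, plus strand: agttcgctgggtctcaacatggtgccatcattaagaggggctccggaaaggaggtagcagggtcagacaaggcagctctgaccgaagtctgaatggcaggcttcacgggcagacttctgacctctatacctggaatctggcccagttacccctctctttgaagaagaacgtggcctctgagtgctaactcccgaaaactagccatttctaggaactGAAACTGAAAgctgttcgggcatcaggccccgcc
Dusp1, chr17:26508473-26508722, minus strand: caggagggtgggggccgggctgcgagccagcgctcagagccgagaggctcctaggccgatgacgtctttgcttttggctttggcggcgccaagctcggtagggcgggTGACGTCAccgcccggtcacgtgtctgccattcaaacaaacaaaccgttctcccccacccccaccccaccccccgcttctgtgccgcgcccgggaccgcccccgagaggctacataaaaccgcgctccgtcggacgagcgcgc

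In Gbp2, Ifit3 and Igtp the capitals mark the core of the interferon-stimulated response element (GAAA, any 2 bases, GAAA, on either strand), and in Dusp1 the cyclic AMP response element (TGACGTCA). The core was found in 11 of the 19 interferon-stimulated genes with a RefSeq promoter (57.9%), against 3.46% of 27025 genes. In all, 6 motifs were searched on both strands, and the core was added after the other 5 had been seen. A gamma-activated site (TTCNNNGAA) was in 6 of 19 promoters of the same list (31.6%, against 8.13% of all), and the cyclic AMP element in 3 of 23 immediate early promoters (13%, against 1.77%). An AP-1 site (TGANTCA) was in 3 of 20 cytokine promoters (15%, against 7.82%), a sterol element (TCACNCCAC) in 1 of 18 sterol and fatty acid promoters (5.56%, against 1.22%), and an E-box (CACGTG) in 1 of 27 ribosome biogenesis promoters (3.7%, against 6.86%). Among the 9299 tested genes with a promoter, the shares were 3.32% for the core, 7.3% for the gamma-activated site, 3.14% for the cyclic AMP element, 5.18% for AP-1, 1.2% for the sterol element and 9.96% for the E-box. Matches to the 2 interferon motifs can overlap in a promoter. A match describes the letters of the window and is not evidence of binding.

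Sterol synthesis genes rose. Of 26 genes of sterol and fatty acid metabolism, 13 rose and 2 fell with 5 mice, and 15 rose and 3 fell with mice 2, 3 and 5. Their median change per mouse was 0.86, 0.74, 0.51, 0.82 and 0.75 in mice 1 to 5. Lss, which closes the sterol rings, had 180, 69.6, 73.3, 176 and 71.2 CPM at 6h, against 59.8, 18.2, 15.9, 58.9 and 15.5 CPM at 2h. Mice 1 and 4 stood above the others at both times, and the change was 1.87 ± 0.19 (adjusted p = 0.00221). Nsdhl and Fdps, also enzymes of the pathway, rose by 1.25 ± 0.19 and 1.18 ± 0.23. The desaturase genes Scd1 and Scd2 fell by 1.74 (SE 0.33) and 1.22 (SE 0.32) on the log2 scale. The calls of Scd1 and Scd2 were lost without mouse 2, 3 or 5, and that of Fdps without mouse 2 or 5.

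Immediate early genes fell in part, and mainly in mice 2, 3 and 5. Of 30 immediate early genes, 8 fell and 1 rose with 5 mice, and 18 fell and 2 rose with mice 2, 3 and 5. The list median was 0.08, -0.39, -1.05, 0.07 and -1.20 in mice 1 to 5, and 16 and 18 of the 30 genes were higher at 6h in mice 1 and 4. Fosb, an AP-1 subunit, had 2.94, 5.98, 7.08, 3.20 and 4.43 CPM at 6h, against 9.06, 46.2, 103, 21.0 and 76.5 CPM at 2h, with no overlap between the times, a change of -3.10 ± 0.38 (adjusted p = 0.00461). Fosl2, another AP-1 subunit, had 21.5, 192, 227, 72.5 and 208 CPM at 6h, against 78.5, 864, 1492, 298 and 1202 CPM at 2h, a change of -2.29 ± 0.19 (adjusted p = 0.00102). Each mouse was lower at 6h, while the times overlapped because mouse 1 at 2h lay below the 6h values of mice 2, 3 and 5. Fos fell by 1.26 and Dusp1 by 1.65 on the log2 scale, and both calls were lost without mouse 2, 3 or 5. Fosl1 was the member that rose, by 1.57 ± 0.31, and this call was lost without any of mice 2 to 5. Nr4a1, a nuclear receptor that reports receptor signals, had 613, 1466, 1559, 850 and 1252 CPM at 6h, against 431, 2373, 3877, 814 and 2939 CPM at 2h. It was higher at 6h in mice 1 and 4 and lower in the others, with a change of -0.57 ± 0.30 (adjusted p = 0.197) with 5 mice and -1.08 ± 0.19 (adjusted p = 0.00107) with mice 2, 3 and 5.

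Inhibitors of the MAP kinase pathway moved in both directions, 5 higher and 4 lower of 16 with 5 mice. With mice 2, 3 and 5, 7 were higher and 6 lower. Dusp6, which removes phosphate from ERK, had 51.6, 245, 262, 105 and 238 CPM at 6h, against 7, 36.0, 46.8, 15.5 and 47.2 CPM at 2h, with all 6h values above all 2h values and a change of 2.61 ± 0.16 (adjusted p = 0.000404). Spry1, an inhibitor upstream of ERK, rose by 2.73 ± 0.39, with 0.92 in mouse 1 and 2.82 to 3.58 in the others. Dusp10, which acts on the stress kinases, fell by 2.57 (SE 0.51) on the log2 scale with 5 mice and by 3.52 (SE 0.21) with mice 2, 3 and 5, and the 5-mouse call was lost without mouse 2, 3 or 5.

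Genes outside these lists fell as well. Plaur, the urokinase receptor, had 5.05, 18.5, 21.7, 11.8 and 17.8 CPM at 6h, against 29.1, 225, 252, 78.7 and 217 CPM at 2h, a change of -3.24 ± 0.23 (adjusted p = 0.00055). Dgat1, the last enzyme of triglyceride synthesis, had 26.9, 27.3, 24.9, 28.6 and 26.8 CPM at 6h, against 119, 260, 402, 181 and 326 CPM at 2h. Its 6h levels were nearly the same in all 5 mice, and its change was -3.17 ± 0.30 (adjusted p = 0.00172). Abcb1a, a drug efflux pump, changed by -3.20 ± 0.28, and Ramp3, a partner of the calcitonin receptor family, by -2.99 ± 0.31. Lmna, the lamin A gene, had 13.6, 1.20, 1.14, 12.6 and 0.566 CPM at 6h, against 58.6, 22.1, 48.5, 37.3 and 29.7 CPM at 2h, and its call (adjusted p = 0.019) was lost without mouse 2, 3 or 5. The share of all genes called lower was 7.82% with 5 mice and 24.9% with mice 2, 3 and 5. Of 21 cytokine receptor chains, 6 fell and 2 rose with 5 mice, and 11 fell and 4 rose with mice 2, 3 and 5. Among these, Ifngr2, a chain of the interferon gamma receptor, had 30.0, 18.4, 13, 24.8 and 13.1 CPM at 6h, against 50.1, 164, 181, 74.8 and 183 CPM at 2h, a change of -2.68 ± 0.51, and Ifnar1 and Tgfbr2 changed by -1.13 ± 0.19 and -1.56 ± 0.30. All 3 calls were lost without mouse 2, 3 or 5.

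Genes of the naive and recirculating state were lower mainly in mice 2, 3 and 5. Of 20 tested, 4 fell and 2 rose with 5 mice, against 14 that fell and 2 that rose with mice 2, 3 and 5. S1pr1, the receptor that lets T cells leave lymphoid organs, had 20.2, 106, 67.5, 22.5 and 62.1 CPM at 6h, against 18.5, 655, 565, 113 and 661 CPM at 2h. Mouse 1 was low at both times and no lower at 6h, and the change was -2.38 ± 0.51 (adjusted p = 0.0288) with 5 mice and -3.04 ± 0.20 with mice 2, 3 and 5. The 5-mouse call was lost without any of mice 2 to 5. Tcf7, a transcription factor of naive cells, had 1526, 376, 301, 1193 and 251 CPM at 6h, against 1464, 1017, 1239, 766 and 1288 CPM at 2h. It was higher at 6h in mice 1 and 4 and lower in the others, giving -1.07 ± 0.46 (adjusted p = 0.135) with 5 mice and -1.95 ± 0.21 (adjusted p = 6.01e-05) without mice 1 and 4. Foxo1, which maintains quiescence, fell in both fits, by 1.37 on the log2 scale with 5 mice, a call lost without mouse 2 or 3. Bach2, a repressor that restrains effector fate, rose by 1.98 ± 0.18 (adjusted p = 0.0016).

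**Figure D3:**
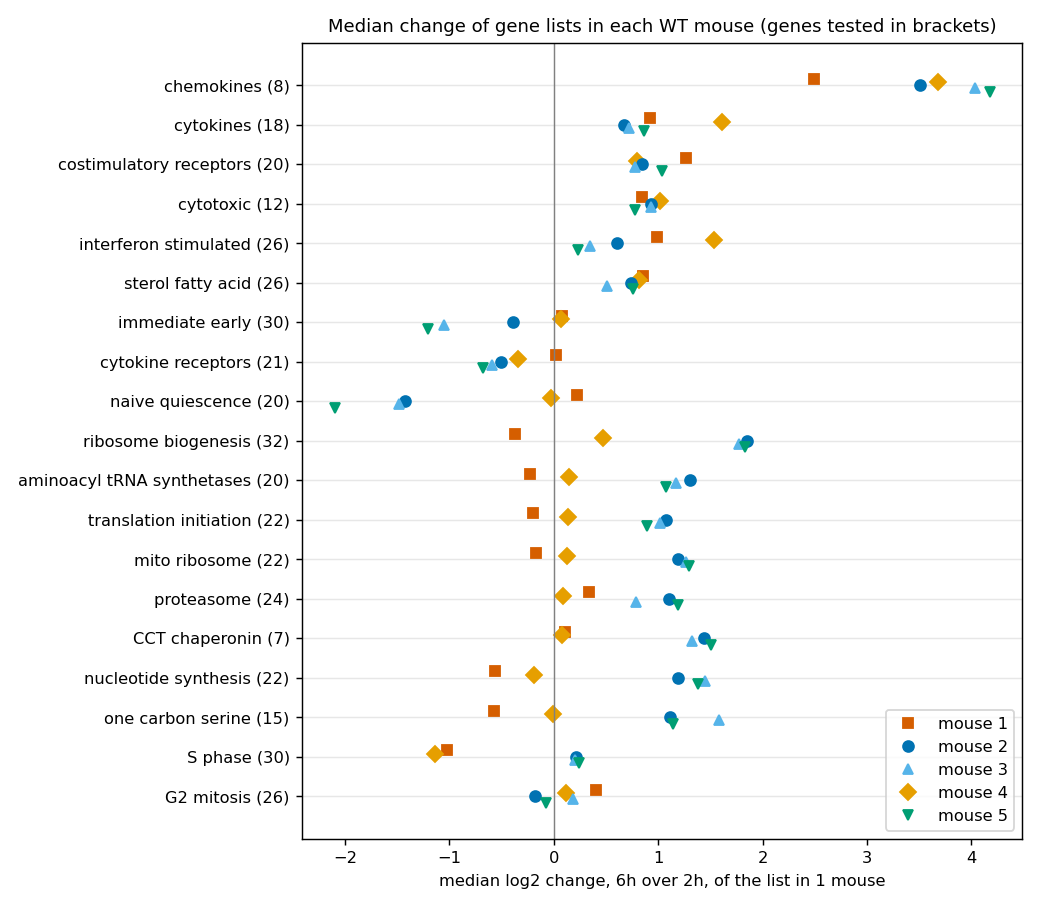
Median log2 change at 6h relative to 2h of 19 gene lists (number of genes tested in brackets) in each WT mouse, 1 symbol per mouse. For chemokines, cytokines, cytotoxic and sterol genes all 5 mice lie right of 0, and for the lists from ribosome biogenesis to serine and one-carbon genes mice 2, 3 and 5 lie between 0.79 and 1.85 while mice 1 and 4 lie between -0.58 and 0.47.

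Growth genes separated the mice. Of 32 genes of ribosome biogenesis, 2 rose with 5 mice and 32 with mice 2, 3 and 5. The median change of this list was -0.38, 1.85, 1.77, 0.47 and 1.83 in mice 1 to 5, and 6 of 32 genes were higher at 6h in mouse 1, against 32 of 32 in each other mouse. Dkc1, which modifies ribosomal RNA, had 195, 444, 493, 279 and 552 CPM at 6h, against 222, 70.7, 47.8, 226 and 68.4 CPM at 2h. Mice 1 and 4 were high at 2h, and the change was 1.85 ± 0.63 (adjusted p = 0.0833) with 5 mice and 3.00 ± 0.19 (adjusted p = 5.34e-06) with mice 2, 3 and 5. Wdr12 and Noc3l, assembly factors of the large subunit, were the 2 called with 5 mice, at 1.75 ± 0.36 and 1.46 ± 0.33, and both calls were lost without mouse 2, 3 or 5. The summed cell cycle and thymocyte levels given above differ between the same sets of mice, and their part in these differences was not tested.

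In other growth lists, too, more genes were called with mice 2, 3 and 5 than with 5 mice, beside 27% and 5.4% of all genes called higher in these fits. The number called higher with mice 2, 3 and 5 was 18 of 20 aminoacyl-tRNA synthetases, 17 of 20 genes of RNA polymerases I and III, 17 of 22 translation initiation factors, 18 of 22 mitochondrial ribosomal proteins (1 fell), 23 of 24 proteasome subunits, 7 of 7 subunits of the CCT chaperonin and 19 of 22 nucleotide synthesis genes (1 fell). With 5 mice the numbers were 2, 2, 0, 0, 5, 0 and 0 for these lists in the same order. Mice 1 and 4 did not form 1 pattern. The nucleotide synthesis median was -0.56 and -0.19 in mice 1 and 4, the proteasome median was 0.34 and 0.09, and the ribosome biogenesis median was of opposite sign in the 2 mice. Myc, the transcription factor that drives growth, had 150, 1237, 1374, 450 and 1034 CPM at 6h, against 229, 301, 603, 183 and 427 CPM at 2h. It was lower at 6h in mouse 1 and higher in the others, and it was called with mice 2, 3 and 5 (1.5 ± 0.20, adjusted p = 0.000256) and not with 5 mice (1.03 ± 0.36, adjusted p = 0.0862). Mxd4, a member of the family that opposes Myc, had 260, 21.0, 15.3, 161 and 16.4 CPM at 6h, against 139, 303, 234, 129 and 288 CPM at 2h, opposite in mice 1 and 4 to the other mice.

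Metabolic enzymes also differed between the mice. Hk2, the inducible hexokinase, had 18.5, 119, 147, 54.2 and 112 CPM at 6h, against 35.8, 3.87, 4.48, 24.3 and 5.68 CPM at 2h. The change was 4.74 ± 0.22 (adjusted p = 2.43e-06) with mice 2, 3 and 5 and 3.07 ± 1.09 (adjusted p = 0.0899) with 5 mice. Bcat1, which breaks down branched-chain amino acids, had 49.9, 151, 190, 82.9 and 174 CPM at 6h, against 76.1, 2.20, 4.16, 64.0 and 2.22 CPM at 2h, and its change was 5.98 ± 0.23 (adjusted p = 1.99e-06) with mice 2, 3 and 5. Cad, the enzyme that starts pyrimidine synthesis, had 81.5, 400, 494, 194 and 348 CPM at 6h, against 240, 35.3, 33.3, 116 and 48.5 CPM at 2h. In mice 1 and 4 the 2h levels of these 3 genes already lay above those of mice 2, 3 and 5 at 2h. Bcat1 was named for a large gap in change between mice 2, 3 and 5 and mice 1 and 4, so its split follows from that choice. Cdk4, a kinase of the G1 phase, had 509 to 543 CPM at 6h in all 5 mice, against 584 and 525 CPM at 2h in mice 1 and 4 and 68.5 to 90.7 CPM at 2h in mice 2, 3 and 5. Of 24 glycolysis genes, 2 rose with 5 mice, namely Pfkfb3 (1.14 ± 0.18, a call lost without mouse 2 or 5) and Aldoa (1.03 ± 0.28), and 11 rose and 4 fell with mice 2, 3 and 5.

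Cell cycle genes differed between the same mice. Mice 1 and 4 were set apart partly for their cycling profile, so part of this difference follows from that choice. Of 30 S phase genes, 6 fell and 0 rose with 5 mice, against 6 that fell and 9 that rose with mice 2, 3 and 5. Of all genes, 5.4% were called higher and 7.82% lower with 5 mice, and 27% and 24.9% with mice 2, 3 and 5. The S phase counts with mice 2, 3 and 5 lie near those shares. The list median was -1.02 and -1.13 in mice 1 and 4, against 0.20 to 0.24 in mice 2, 3 and 5. Of 26 genes of G2 and mitosis, 1 rose (Hmmr) and 0 fell with 5 mice, 0 rose and 4 fell with mice 2, 3 and 5, and 22 were higher at 6h in mouse 1. Cdt1, which loads the replication helicase, had 56.4, 57.2, 56.5, 58.0 and 47.7 CPM at 6h, against 237, 108, 194, 136 and 132 CPM at 2h. All 5 mice fell to nearly the same level, with a change of -1.52 ± 0.20 (adjusted p = 0.00588). Cdkn1b (p27), an inhibitor of cyclin-dependent kinases, fell by 1.86 (SE 0.39) on the log2 scale, a call lost without mouse 2, 3 or 5. Of 22 genes of G1 cyclins, their kinases and inhibitors, 8 fell, Cdkn1b among them, and 1 rose with 5 mice, and 10 fell and 6 rose with mice 2, 3 and 5. The member that rose with 5 mice was Ccnd2 (cyclin D2), by 2.24 ± 0.27 with 19.8 CPM in mouse 1 and 349 to 1455 CPM in the others at 6h. Of 15 genes of the BCL2 family, 3 rose and 1 fell with 5 mice, and 6 rose and 5 fell with mice 2, 3 and 5. Bcl2a1b and Bcl2a1d, which share near-identical copies, rose by 2.4 ± 0.22 and 2.81 ± 0.28, Bid, which promotes death, rose by 1.71 ± 0.33, and Bcl2l11 (Bim), also a promoter of death, fell by 1.46 (SE 0.18).

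Markers of other cell types were called at shares near those of all genes, 13.2% with 5 mice and 51.9% with mice 2, 3 and 5, or below them. Of 10 B cell genes tested, 1 fell (Blk) with 5 mice and 4 fell with mice 2, 3 and 5. Of 7 myeloid genes, 1 rose (Mpeg1) with 5 mice, and 1 rose and 1 fell with mice 2, 3 and 5. Of 6 erythroid and platelet genes, 0 were called in either fit. Of 6 genes of CD4 and regulatory T cells, 0 were called with 5 mice and 2 fell with mice 2, 3 and 5. Their sums in mice 1 and 4 were 1109 and 889 CPM at 6h, against 523 and 533 CPM at 2h. In the other mice these sums lay between 92.1 and 128 CPM at 6h, against 149.9 to 232 CPM at 2h. Summed levels of the B cell list ranged over 630 to 1546 CPM at 6h, against 358 to 2136 CPM at 2h, and those of the myeloid list over 19.1 to 79.0 CPM at 6h, against 17.4 to 40.4 CPM at 2h. The dendritic list had sums of 109 to 197 CPM at 6h, against 91.7 to 423 CPM at 2h. Of its 8 tested genes, 1 (Itgax) was called lower with 5 mice, and 1 rose and 2 fell with mice 2, 3 and 5. Clec9a and Siglech, markers of dendritic cells, did not pass the filter on low counts.

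Placed in the WT time course of 0, 2, 6, 12 and 24 hours, the genes of this step had their highest level at different times. Of the 627 genes higher in both fits, 6h was the highest of the 5 times for 316 (50.4%), 12h for 158 (25.2%) and 24h for 92 (14.7%), as means of mice 2, 3 and 5. Over all genes tested 6h was highest for 15.1%. As means of mice 1 and 4, 24h was highest for 242 of the 627 (38.6%) and 6h for 215 (34.3%), against 22.5% and 22% of all genes. Of the 904 genes lower in both fits, 2h was the highest time for 612 (67.7%) in mice 2, 3 and 5, against 21.9% of all genes, and for 578 (63.9%) in mice 1 and 4, against 20.2%. Being higher or lower at 6h than at 2h keeps 2h or 6h from being the highest time, so part of these shares follows from the choice. Dgat1 had 23.7 to 69.1 CPM at 0h, 119 to 402 CPM at 2h, 24.9 to 28.6 CPM at 6h, 21.5 to 27.5 CPM at 12h, then 12.0 to 22.0 CPM at 24h. Tnfsf14 had 3.62 to 7.80 CPM at 0h, 4.67 to 96.2 CPM at 2h, 19.9 to 420 CPM at 6h, 54.1 to 137 CPM at 12h, then 53.2 to 73.2 CPM at 24h. Gzmb was highest at 24h in every mouse, with 0.41 to 10.2 CPM at 0h, 0.642 to 11.8 CPM at 2h, 0.753 to 61.3 CPM at 6h, 6.30 to 843 CPM at 12h, then 183 to 1884 CPM at 24h.

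**Figure D4:**
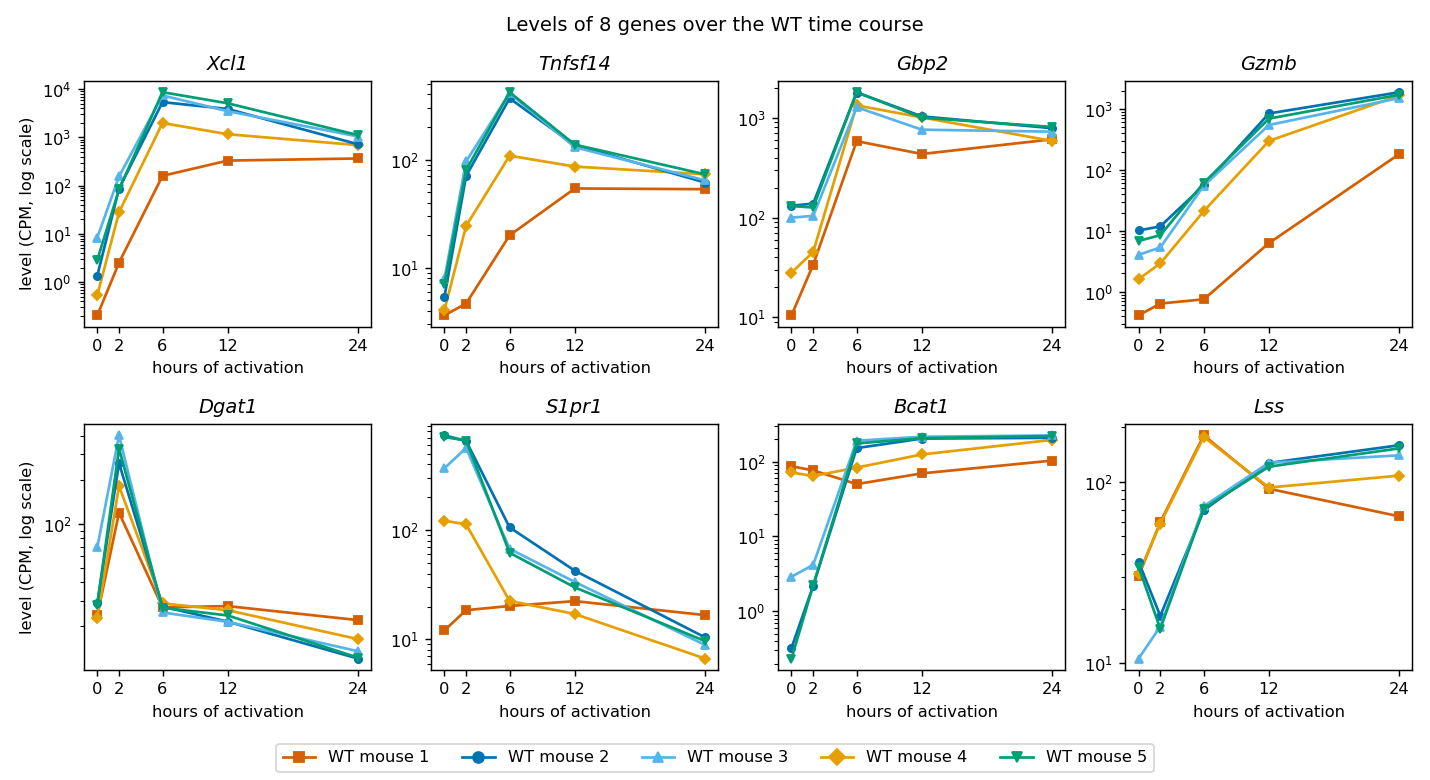
Levels in CPM on a log axis of 8 genes at 0, 2, 6, 12 and 24 hours of activation in each WT mouse (1 line per mouse). Xcl1, Tnfsf14 and Gbp2 are highest at 6h in mice 2, 3 and 5, Dgat1 is highest at 2h in all mice, and Gzmb is highest at 24h in all mice.

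The WT step was set against the KO step from 2h to 6h by testing the difference of the 2 changes, WT minus KO, over 12596 genes. edgeR called 0 genes (0%) with 5 WT mice and 0 (0%) with WT mice 2, 3 and 5, where 1892 and 2283 genes had an unadjusted p under 0.05. DESeq2 with the same block called 182 and 381 genes. In the KO step itself 9157 genes were called (72.7%), in a separate fit whose spread comes from the KO libraries alone. Ifit3 had 1.62, 20.9, 12.7, 6.81 and 22.4 CPM in WT at 6h and 0.575, 5.45, 3.31, 1.46 and 4.94 CPM in WT at 2h, against 24.1, 16.4, 21.0, 25 and 64.0 CPM in KO at 6h and 19.5, 9.48, 16.3, 13.9 and 32.8 CPM in KO at 2h. Its change was larger in WT by 1.36 ± 0.21 (adjusted p = 0.129) with 5 WT mice and by 1.43 ± 0.21 (adjusted p = 0.0527) with WT mice 2, 3 and 5, and DESeq2 gave an adjusted p of 1.02e-05 and 1.05e-05. Every WT value at 2h was below every KO value at 2h.

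Lif, a cytokine of the interleukin 6 family, differed the other way in its values, with 8.10, 97.8, 112, 56.2 and 96.7 CPM in WT at 6h and 3.79, 20.6, 49.4, 12.0 and 33.5 CPM in WT at 2h, against 292, 320, 376, 331 and 503 CPM in KO at 6h and 27.2, 41.5, 29.5, 33.7 and 60.9 CPM in KO at 2h. The difference of the changes was -1.57 ± 0.26 (adjusted p = 0.129) with 5 WT mice and -1.56 ± 0.23 (adjusted p = 0.0527) with WT mice 2, 3 and 5, where DESeq2 gave adjusted p values of 2.26e-05 and 1.14e-06. Ifng gave -1.44 ± 0.24 (adjusted p = 0.129) and -1.22 ± 0.21 (adjusted p = 0.0698) in these fits, and 1.02e-05 and 2.25e-05 as adjusted p values of DESeq2, with 10.4 to 131 CPM in WT at 6h against 334 to 1917 CPM in KO at 6h. Gbp2 gave 1.54 ± 0.28 (adjusted p = 0.155) and 1.26 ± 0.23 (adjusted p = 0.0754), and 0.000245 and 0.000151 with DESeq2, with a WT change of 4.00 ± 0.24 and a KO change of 2.49 ± 0.15. Other values lay close, such as Il2 with 3.90 ± 0.25 in WT and 3.87 ± 0.11 in KO, and Lss with 1.87 ± 0.19 in WT and 2.16 ± 0.10 in KO. Of the growth genes, Bcat1 changed by 3.82 ± 1.54 in WT with 5 mice, 5.98 ± 0.23 in WT mice 2, 3 and 5, and 5.43 ± 0.11 in KO. Ribosome biogenesis genes rose in 32 of 32 cases in WT mice 2, 3 and 5 and in 32 of 32 in KO, where 36.3% of all genes tested were called higher.

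**Figure D5:**
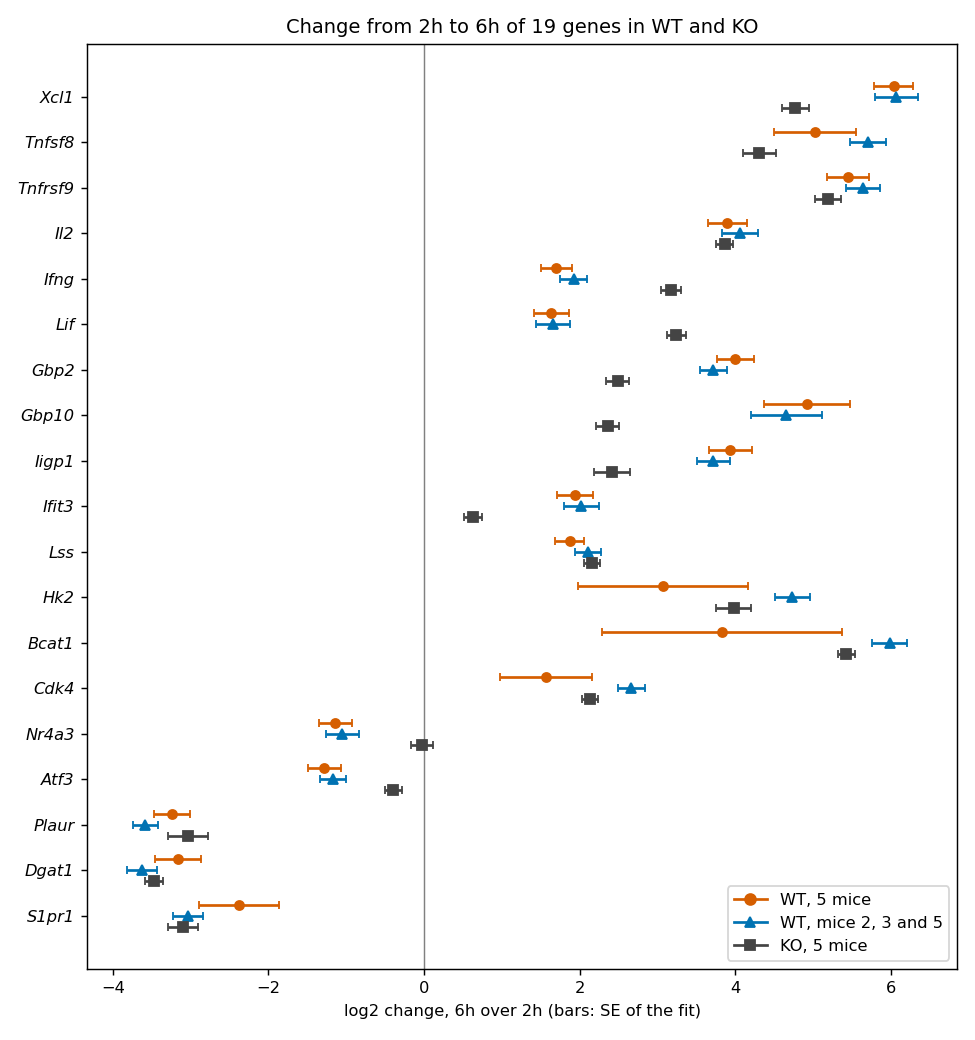
Log2 change at 6h relative to 2h of 19 genes in WT with 5 mice, in WT mice 2, 3 and 5, and in KO with 5 mice, with bars for the SE of the fit. Ifng and Lif lie further right in KO, Gbp2, Gbp10, Iigp1 and Ifit3 lie further right in WT, and Il2, Lss, Plaur and Dgat1 lie close together.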

How the data were processed

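Total RNA of splenic CD8+ T cells was sequenced as stranded mRNA libraries with single reads of 50 nt, per the labels' protocols. The authors deposited raw read counts per gene. CASAVA 1.8.2, STAR 2.4, featureCounts 1.4.6 and the build GRCm38 are named in the submitters' processing notes. The annotation release and the strand setting of the counting are not given in the sources used here. Overlapping and antisense genes are therefore uncertain, as are near-identical copies (Gbp, Bcl2a1 and Serpinb6b). Whether any reads were shared between the related genes Ccl3 and Ccl4 was not tested.

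Counts were analysed with edgeR 4.0.16 in R 4.3.3 (TMM scaling, minimum count 10, minimum total 15, robust quasi-likelihood test, mouse as a block, Benjamini-Hochberg over all genes tested, called under 0.05). Per-mouse log2 changes use a prior count of 2. The second fit, with mice 2, 3 and 5, covers the same 11886 genes. Libraries with the same mouse number come from the same animal, and their deviations from the time means correlated at 0.730, 0.698, 0.470, 0.704 and 0.659 in mice 1 to 5. These means are over all 5 mice, so the split between mice 1 and 4 and the others enters the correlations. They therefore do not test the pairing. Mice are biological replicates. DESeq2 1.42.0, limma 3.58.1, other scalings, no filter, no replicate block, a shared spread and leaving out mice were tried as alternatives. The paired fits with 5 mice and with mice 2, 3 and 5 were also run on simulated counts, in which each gene changed alike in all mice. Mice that change differently, as seen here, and the WT minus KO fit were not simulated.

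The members and gene lists were chosen with earlier results of these data known. Of 755 list genes 3 were not matched. Genes were named by a rule: the largest changes called in both fits with the same sign in every mouse, and the members of each list with the smallest p. The rule also took genes called only without mice 1 and 4, by the largest gap in change between these and the other mice. A split between the mice in genes of this last kind follows from the choice. The text describes a subset, with a few other list members, chosen after values were seen. Certain items are not reported here.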

Additional observations from a re-analysis of the deposited data

Results flagged for a closer look

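Over 158 sets of 5 values, 5 had 1 mouse farther from the others than Dixon's critical value of 0.71 of the range, and chance marks about 1 in 20 such sets. The change of Irf8, a transcription factor of effector cells, was 0.83 in mouse 1 and 2.85 to 3.39 in the others. The change of Spry1, an inhibitor of ERK signals, was 0.92 in mouse 1 and 2.82 to 3.58 in the others. The median change of the cytokine list was 1.61 in mouse 4 and 0.67 to 0.92 in the others. The median change of the p53 target list was 0.40 in mouse 4 and -0.12 to -0.06 in the others. The total count of the 2h library of mouse 3 was 9572000, against 24650000 to 27720000 in the others.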

How the results depend on the processing

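With 5 mice, the 1571 calls became 4005 with DESeq2, 2773 with the spread of all WT libraries, 4814 with that of all libraries, 7634 with mice 2 and 5 alone (chosen after seeing the data), and 228 to 3583 with 1 mouse left out. Without the replicate block 1121 genes were called, 820 of them among the 1571, and 44 of the 87 named genes called with 5 mice stayed called. Leaving out 1 mouse kept 46 of those 87 called in each case. The WT minus KO difference had 182 (5 WT mice) and 381 (mice 2, 3 and 5) calls with DESeq2, 2 and 169 with the spread of all libraries, and 0 to 1 with 1 mouse left out. Among the named genes, signs turned for 2 that the 5-mouse fit did not call. Cd8b1 (-0.00) gave 0.019 with library totals, 0.030 without the filter, 0.029 with limma-voom, 0.043 and 0.038 with the spread of all WT or all libraries, and -0.355 to 0.205 with 1 mouse left out. Slc7a5 (0.26) gave -0.012 (without mouse 2) to 0.69 with 1 mouse left out. The cause of these differences was not tested. The 5-mouse fit has 4 residual degrees of freedom, the 3-mouse fit 2, and the fit of mice 2 and 5 fewer still.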

Other observations

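Single genes of smaller lists were called with 5 mice, where 5.4% of all genes were called higher and 7.82% lower, and several of the list counts lie near these shares. Of 18 heat shock genes, the stress-inducible Hspa1a and Hspa1b, near-identical copies, fell by 1.85 (SE 0.45) and 1.81 (SE 0.42) on the log2 scale, and the constitutive chaperone Hspa8 and the endoplasmic reticulum chaperone Hsp90b1 rose by 1.32 ± 0.28 and 0.84 ± 0.21. Of 17 genes of the T cell receptor complex and its proximal signalling, 5 rose and 1 fell. Cd5 and Cd6, which restrain receptor signals, rose by 1.38 ± 0.16 and 1.19 ± 0.23, and Plcg1, the phospholipase of the pathway, fell by 0.88 (SE 0.23). Of 18 genes of NF-kB and its feedback, Rel, a subunit, and Tnip2 rose by 0.85 ± 0.19 and 0.79 ± 0.17, and the inhibitor Tnfaip3 and the cofactor Bcl3 fell by 0.86 (SE 0.22) and 1.09 (SE 0.27). In this list 9, 5, 6, 13 and 6 of the 18 genes were higher at 6h in mice 1 to 5. Of 17 p53 targets, Gadd45g, Ccng1 and Tnfrsf10b rose by 1.06 ± 0.24, 1.33 ± 0.30 and 1.52 ± 0.26. With mice 2, 3 and 5, 11 heat shock genes rose and 2 fell, and 6 receptor complex genes rose and 5 fell. In the same fit 4 NF-kB genes rose and 10 fell, and 8 p53 targets rose and 7 fell. Of all genes, 27% were called higher and 24.9% lower in that fit.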
